A study of Homo sapiens with 24 samples.

Results

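The condensin subunits and the 2 acetyltransferases of cohesin were followed in lung cancer cells given the antifibrotic drug Pirfenidone. The 10 genes were SMC2, SMC4, NCAPD2, NCAPG, NCAPH, NCAPD3, NCAPG2, NCAPH2, ESCO1 and ESCO2, and they were taken by name: every probe whose gene name in the scanner files was one of these symbols was used. This gave 16 of 34127 probes and 10 of 22242 gene symbols on the array. ESCO2 was included because its drug change differed between the 2 cell lines at 24 h in these same arrays. Every ESCO2 difference that uses a 24 h array is therefore a description with no test, and ESCO2 was tested at 6 h only. The spread in its 6 h tests is shared by all 8 groups and so draws on the 24 h arrays too. The other 9 genes were listed by the complex they belong to.

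Condensins are ring-shaped motors that fold chromatin into loops and give mitotic chromosomes their compact form. A pair of ATPase arms, SMC2 and SMC4, is shared by both vertebrate complexes: condensin I adds the kleisin NCAPH and the HEAT-repeat subunits NCAPD2 and NCAPG, and condensin II adds the kleisin NCAPH2 with NCAPD3 and NCAPG2. Cohesin is the related ring that holds sister chromatids together, and it does so stably only after its SMC3 subunit is acetylated, by ESCO1 through much of the cell cycle and by ESCO2 during DNA replication. Loss of ESCO2 causes Roberts syndrome, in which sister centromeres part too early.

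The cells were A549 and H1975, both established human lung adenocarcinoma lines obtained from the ATCC repository. Each line received 0.75 mg/ml Pirfenidone, or PBS at the same volume, for 6 h or 24 h, which gave 8 groups of 3 samples and 24 one-color Agilent arrays. Pirfenidone is an approved drug for idiopathic pulmonary fibrosis, only 1 dose was used, and neither line carried an engineered change in the labels. Nothing in the labels says that the 3 samples of a group came from separate cultures, so the p-values measure only the spread between these samples, which may be technical. RNA was measured in bulk, where fewer cells with a transcript and less transcript in each cell cannot be told apart.

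A level below is log2 of a probe's background-subtracted intensity minus the 75th percentile of its array. A level of 0 is a probe as bright as that percentile. Levels of different probes were not compared with each other, except to point out dim signals. A difference is Pirfenidone minus PBS in log2 units. Where several probes named a gene, the brightest stood for it, and the gene passed when limma's Benjamini-Hochberg adjusted p over all probes tested was 0.05 or less and the difference was at least 1 in size. Each of the 16 probes exceeded background clearly on all 24 arrays and none was saturated, and between 62.7% and 69.5% of the array's probes did so per sample. The epithelial markers KRT7, KRT8, KRT18, EPCAM and CDH1 were detected on 12 of 12 arrays in either line, and NKX2-1, which marks lung adenocarcinoma, was so on 12 of 12 H1975 and 0 of 12 A549 arrays. Of the other markers of that kind, NAPSA was detected on 12 of 12 arrays in either line, and SFTPB on 9 of 12 in H1975 and 1 of 12 in A549. Markers of leukocytes, endothelium and fibroblasts were detected too, so detection alone does not name a cell type. CD68, CDH5 and COL1A1 were so on 12 of 12 arrays in either line, and PTPRC on 12 of 12 in A549 and 11 of 12 in H1975. PECAM1, VWF and PDGFRB were so on 12 of 12 in H1975 and 0 of 12 in A549. CD3E was so on 1 of 12 in H1975 only, and COL3A1 and DCN on 0 of 12 in either.

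The arrays fell into 4 runs, here the sets of files whose names share a date, and each run held equal numbers of drug and PBS arrays. Place on the slide, however, followed treatment and time in both lines. Drug arrays were always at place 1 (6 h) or 3 (24 h), and PBS arrays at place 2 (6 h) or 4 (24 h). Every drug difference is therefore also a difference of place, and an effect of place was not tested. In run 3, H1975 cells treated for 24 h were read on separate slides, slide 1 for PBS and slide 3 for drug. The A549 pair of run 1 at 24 h, replicate 3 of both groups, stood apart from the other A549 pairs: all 8 condensin genes were higher with drug in that pair, by 0.53 to 2.09, and lower with drug in the pairs of run 2 (by 0.07 to 0.68) and run 3 (by 0.45 to 1.19). Within that pair the PBS array was the low one. Its NCAPH level was -6.51, against -4.39 and -4.56 on the other 24 h PBS arrays of A549, and its ESCO2 level was -0.78, against 0.07 and -0.09. Whether the 2 samples of this pair were exchanged was not tested, and the main results that use the pair are given with and without it.

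The condensin promoters are shown first as background on the genes, and a link between their letters and the drug differences was not tested. RefSeq windows on GRCh38.p14 that run from 250 bases before to 50 bases after a gene's start were found for 7 of the 8 condensin genes, 10 windows in all. The cell cycle genes homology region (CHR), a short element known from promoters of late cell cycle genes, was searched on both strands as TTTGAA or TTTAAA. At least 1 window of each of these 7 genes held it (7 of 10 windows), and 24% of 35116 windows of the same length did. CCAAT, the box bound by NF-Y, was found in 3 of the 10 windows (NCAPD2, NCAPH and NCAPD3), near the share of all windows, 34.6%. The E2F-type letters TTTCCCGC, TTTGGCGC, TTTGCCGC and TTTCGCGC were found in 1 of the 10 windows, of NCAPD3, and in 3.31% of all windows. The CHR of NCAPG began 35 bases before the start, and those of SMC2 and NCAPD3 lay across the start itself. The stretches below run 5′ to 3′ on the gene's strand. Capitals mark the CHR in the first 5, where TTCAAA is the element on the opposite strand, and the CCAAT box in NCAPH, whose only CHR began 33 bases past the start. They are matches of letters, not measured sites.
NCAPG, chr4:17810859-17810978, plus strand: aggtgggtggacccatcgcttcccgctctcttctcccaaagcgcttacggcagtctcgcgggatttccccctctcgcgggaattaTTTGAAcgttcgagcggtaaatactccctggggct
NCAPD2, chr12:6493942-6494101, plus strand: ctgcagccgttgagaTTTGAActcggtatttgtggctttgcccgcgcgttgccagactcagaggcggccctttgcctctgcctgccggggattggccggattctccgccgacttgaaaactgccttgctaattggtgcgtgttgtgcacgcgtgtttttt
SMC2, chr9:104094209-104094318, plus strand: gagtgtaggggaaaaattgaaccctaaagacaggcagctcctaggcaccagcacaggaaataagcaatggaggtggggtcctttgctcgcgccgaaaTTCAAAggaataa
SMC4, chr3:160399530-160399649, plus strand: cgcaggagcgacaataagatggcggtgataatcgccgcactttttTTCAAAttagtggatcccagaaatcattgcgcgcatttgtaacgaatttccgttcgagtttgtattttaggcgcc
NCAPD3, chr11:134223958-134224087, minus strand: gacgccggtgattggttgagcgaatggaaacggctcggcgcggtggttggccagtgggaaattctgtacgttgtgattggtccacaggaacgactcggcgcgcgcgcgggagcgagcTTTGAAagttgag
NCAPH, chr2:96335636-96335765, plus strand: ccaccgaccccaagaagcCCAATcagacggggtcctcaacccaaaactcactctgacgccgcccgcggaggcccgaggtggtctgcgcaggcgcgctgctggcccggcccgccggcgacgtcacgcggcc

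In H1975 cells at 24 h, condensin transcripts were lower with Pirfenidone in every subunit measured. NCAPG and NCAPH, the HEAT-repeat and kleisin subunits that belong to condensin I, fell, and these 2 were the only ones of the 9 tested members (8 condensin genes and ESCO1) to pass, beside 2.05% of the 16553 genes tested in this comparison (1.06% in the same direction). All 8 condensin genes were lower on every drug array than on every PBS array, a pattern that 15.9% of all genes showed. Their median difference was -0.92, beside 0.03 over all genes.

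**Figure D1:**
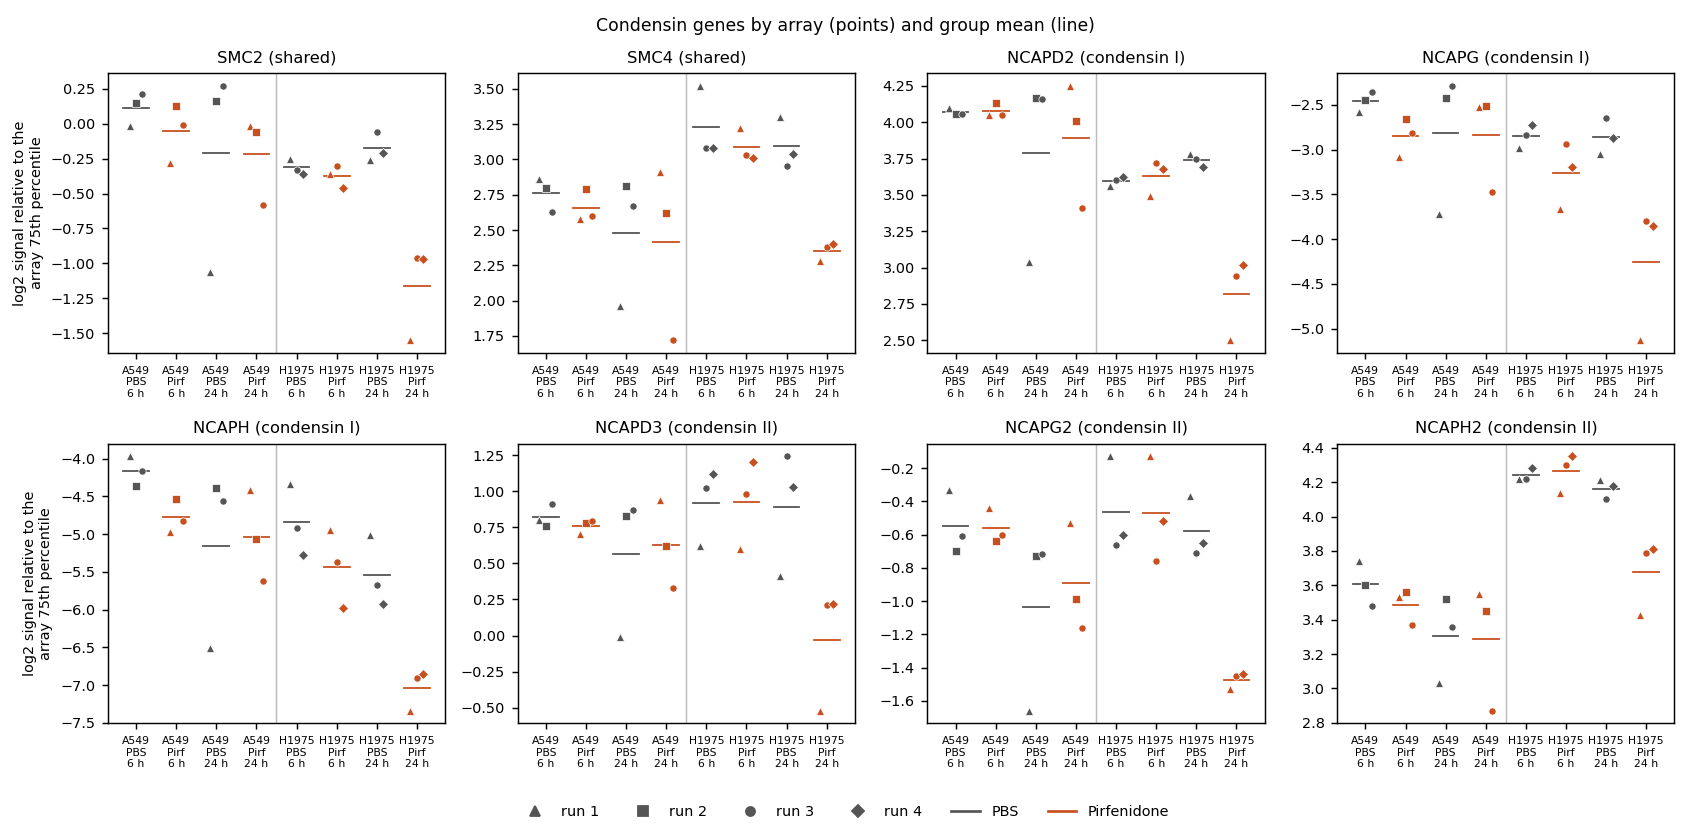
Level of the brightest probe of each condensin gene (y axis, log2 relative to the 75th percentile of the array) on the 24 arrays, with the 8 groups on the x axis, the run as the marker shape and the group mean as a line. In all 8 panels the 3 H1975 drug arrays at 24 h lie below the 3 PBS arrays, and the run 1 PBS array of A549 at 24 h lies below the other PBS arrays of its group.

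The NCAPG probe, at chr4:17846426-17846485 on hg19, had H1975 PBS levels of -3.05, -2.65 and -2.87 at 24 h in runs 1, 3 and 4, and drug levels of -5.13, -3.80 and -3.85. The run 1 drug array was the lowest of the 24, and the groups did not overlap. NCAPG fell by 1.40 on the log2 scale (SE 0.36, 95% interval -2.16 to -0.65, adjusted p = 0.0281), which is 2.64-fold. The NCAPH probe, at chr2:97041160-97041219, went from -5.01, -5.67 and -5.93 with PBS to -7.34, -6.91 and -6.85 with drug, again with no overlap. NCAPH fell by 1.50 (SE 0.44, 95% interval -2.43 to -0.58, adjusted p = 0.0486), or 2.84-fold. These drug levels lay near the floor: the VWF probe, detected on 0 of 12 A549 arrays, had a mean of -7.57 there. With another background correction (normexp) NCAPH did not pass, so the size of its fall is uncertain. The third condensin I subunit, NCAPD2, had PBS levels of 3.78, 3.75 and 3.69 and drug levels of 2.50, 2.94 and 3.02, so that its groups stood well apart. Its difference of -0.92 (SE 0.23) reached an adjusted p of 0.0274 but not the size limit.

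The shared arms and the condensin II subunits lay between -0.99 and -0.49. SMC2 was at -0.26, -0.06 and -0.21 with PBS in runs 1, 3 and 4 and at -1.55, -0.96 and -0.97 with drug, a difference of -0.99 (SE 0.25, adjusted p = 0.0282), just short of the size limit. SMC4 was at 3.30, 2.95 and 3.04 with PBS and at 2.28, 2.38 and 2.40 with drug, and its difference of -0.74 (SE 0.24) had an adjusted p of 0.0718. Both arms therefore had separate groups, and neither passed. Among condensin II subunits, NCAPD3 had PBS levels of 0.41, 1.24 and 1.03 and drug levels of -0.52, 0.21 and 0.22, where the run 1 arrays were the lowest of each group and the difference was -0.92 (SE 0.26, adjusted p = 0.0413). NCAPG2 was at -0.37, -0.71 and -0.65 with PBS and at -1.53, -1.45 and -1.44 with drug, a difference of -0.90 (SE 0.23, adjusted p = 0.0272). The kleisin NCAPH2 had the smallest difference of the 8, -0.49 (SE 0.16, adjusted p = 0.0717), from PBS levels of 4.21, 4.10 and 4.18 to drug levels of 3.43, 3.79 and 3.81. By the adjusted p alone, 6 of the 8 condensin genes were lower, beside 6.76% of all genes in either direction. An unadjusted limma p under 0.05 was reached by 9 of the 9 tested members (ESCO1 as higher), beside 23.5% of all genes. The median difference was -1.40 over the 3 subunits particular in name to condensin I and -0.90 over the 3 of condensin II, and this gap was not tested. It rests on NCAPG and NCAPH, which have 1 probe each, since NCAPD2 of condensin I was at -0.92, as was NCAPD3.

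**Figure D2:**
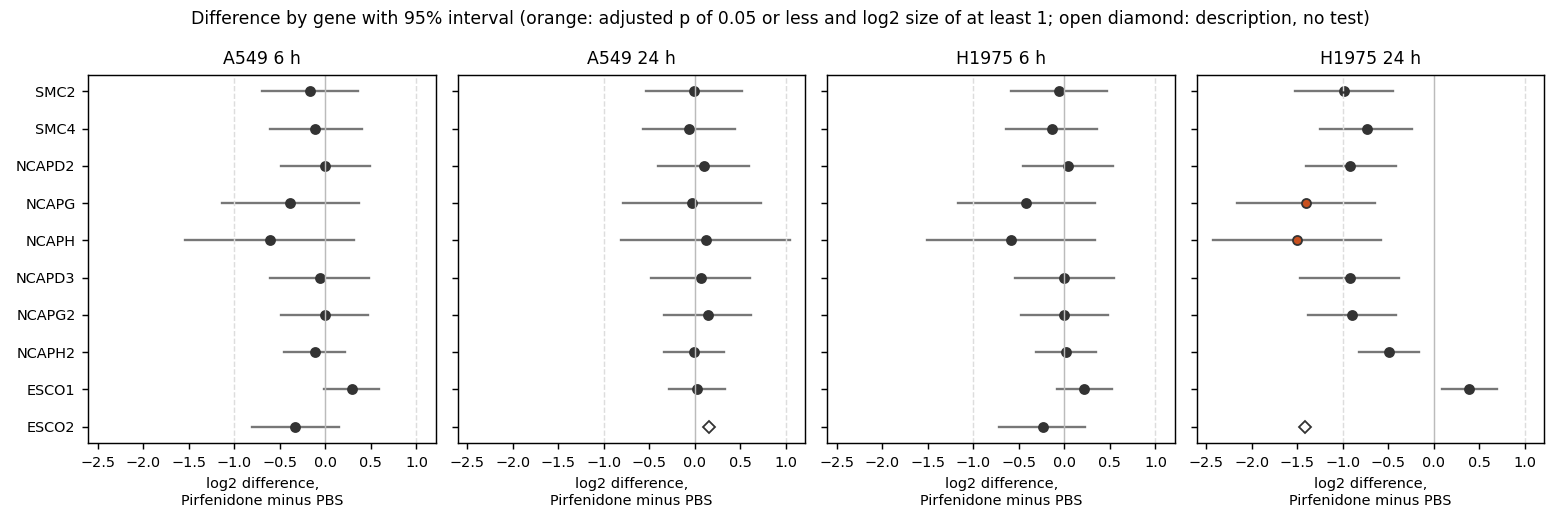
Difference between Pirfenidone and PBS (x axis, log2) for the brightest probe of each of the 10 genes in the 4 pairs of line and time, with 95% intervals from limma. At 24 h in H1975 the condensin genes lie between -1.50 and -0.49 with intervals below 0, ESCO1 lies at 0.39, and the open diamonds mark ESCO2 at 24 h, which has no test.

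The condensin differences in H1975 at 24 h were present in each run, and they were widest in run 1 for all but NCAPD3, which differed by -0.93, -1.03 and -0.81 in runs 1, 3 and 4. Within runs 1, 3 and 4 the drug difference was -2.34, -1.25 and -0.93 for NCAPH and -2.08, -1.15 and -0.98 for NCAPG. The median over the 8 genes was -1.22, -0.85 and -0.78 in these runs. The 2 calls depended on single arrays: NCAPH lost its call in each of the 6 fits that left out 1 of the 6 arrays compared, and NCAPG in 4 of 6. Without replicate 3 of the H1975 drug group, the run 1 array, 0 of the 9 passed, with differences of -0.97 for NCAPG (adjusted p = 0.184) and -1.35 for NCAPH (adjusted p = 0.201), while the median over the 8 genes was -0.77. With the replicate number as a block, 1 gene passed, NCAPG (adjusted p = 0.0171), and NCAPH had an adjusted p of 0.0521. Without the A549 pair of run 1 at 24 h, which enters through the shared estimate of spread, all 8 condensin genes had an adjusted p of 0.05 or less, and NCAPG and NCAPH again passed.

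Lists of genes that peak in S phase and in G2/M, taken from Seurat with the members left out, were lower in the same comparison. In H1975 at 24 h, 33 of 52 G2/M genes passed as lower and 0 as higher, with a median difference of -1.12, and 9 of 46 S phase genes passed as lower with a median of -0.81. SMC4 and NCAPD2 are themselves in the G2/M list and were removed from it. Within runs 1, 3 and 4 the G2/M median was -1.55, -0.87 and -0.91, again widest in run 1. The share of cycling cells was not measured on these arrays, and its part in the condensin values was not tested.

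At 6 h, condensin differences were small in both lines. In A549, 0 of the 9 tested members passed (0.205% of all genes did) and 0 had an unadjusted limma p under 0.05 (6.49% of all genes). The median over the 8 condensin genes was -0.11. NCAPH was at -3.97, -4.36 and -4.16 with PBS in runs 1, 2 and 3 and at -4.97, -4.54 and -4.82 with drug. These groups did not overlap (8.9% of all genes were lower on every drug array), and neither did those of NCAPG, at -2.58, -2.45 and -2.36 with PBS and -3.08, -2.66 and -2.82 with drug. The differences, -0.61 for NCAPH (95% interval -1.54 to 0.31) and -0.39 for NCAPG (95% interval -1.14 to 0.37), both had an adjusted p of 1. All 6 h intervals and p-values here use the spread shared by the 8 groups, which includes the A549 pair of run 1 at 24 h. For NCAPH in A549 the SD was 0.20 with PBS and 0.22 with drug at 6 h, against 1.18 with PBS at 24 h. A small change at 6 h could therefore be missed. H1975 at that time had 0 of 9 as well (0.562% of all genes passed), with 0 at an unadjusted limma p under 0.05 (11.8% of all genes). The condensin median was -0.03. NCAPH and NCAPG were again the lowest of the 8, at -0.59 (95% interval -1.51 to 0.34) and -0.42 (95% interval -1.17 to 0.34), and their groups overlapped. Within runs 1, 3 and 4, however, the drug array was the lower one in each pair, by differences of -0.60, -0.45 and -0.71 for NCAPH and -0.68, -0.09 and -0.48 for NCAPG. The other 6 lay between -0.14 and 0.04. The methods' test, here paired by run, passed 0 of 9 members in both lines after Benjamini-Hochberg adjustment. It passed 0 in H1975 at 24 h as well, so its result at 6 h cannot tell a small change from none.

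In A549 at 24 h, 0 of 9 members passed (0.0121% of all genes did), with 0 at an unadjusted limma p under 0.05 (0.834% of all genes). The condensin differences lay between -0.06 and 0.14. These averages join pairs of opposite sign. NCAPH differed by 2.09 in run 1, by -0.68 in run 2 and by -1.06 in run 3, and NCAPG by 1.19, -0.08 and -1.19. The G2/M list had the same split, with medians of 1.32, -0.21 and -0.68. Without the run 1 pair the condensin median was -0.50, NCAPH differed by -0.87 (adjusted p = 0.497) and NCAPG by -0.64 (adjusted p = 0.705), and still 0 of 9 passed. Which of the values describes A549 cells at 24 h cannot be told apart with these arrays.

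**Figure D3:**
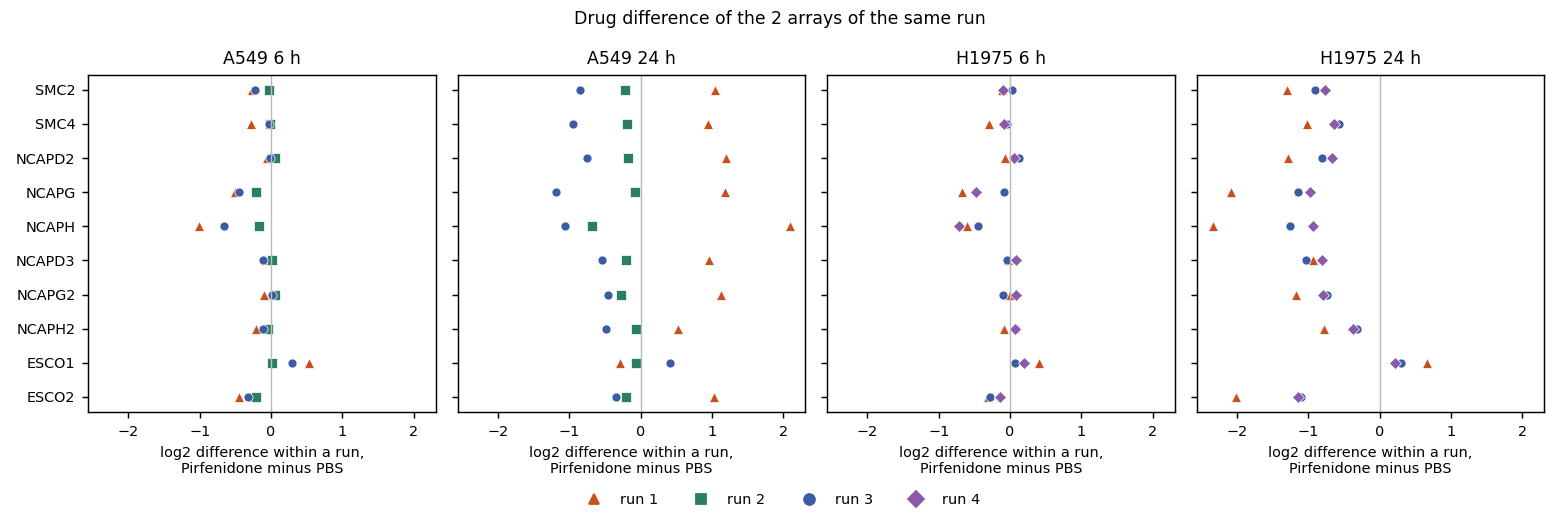
Drug difference of the 2 arrays that share a run (x axis, log2, Pirfenidone minus PBS) for each of the 10 genes, by line and time, with the run as the marker. In A549 at 24 h the run 1 condensin points lie between 0.53 and 2.09 and those of runs 2 and 3 lie below 0, whereas in H1975 at 24 h all condensin points lie below 0 in all 3 runs.

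The difference between the lines in the drug change was tested directly. At 24 h, 0 of 9 members passed (0.217% of all genes did), although 7 of the 9 had an unadjusted limma p under 0.05, beside 13.1% of all genes. H1975 minus A549 ranged from -1.62 for NCAPH (SE 0.62, adjusted p = 0.278) to -0.48 for NCAPH2 (SE 0.22, adjusted p = 0.395) over the condensin genes, and NCAPG2 had the lowest adjusted p, 0.186, at -1.04 (SE 0.32). Without the run 1 pair of A549 the values shrank to -0.76 for NCAPG, -0.63 for NCAPH and -0.54 for NCAPG2, with adjusted p between 0.744 and 0.999 over the 8 genes. At 6 h, 0 of 9 passed (0.0302%), with 0 at an unadjusted p under 0.05 (2.89% of all genes). The change between 6 h and 24 h was also tested. In A549, 0 of 9 passed (0.0302%), with 0 at an unadjusted p under 0.05, beside 3.1% of all genes. In H1975, 0 of 9 passed (0.00604%), with 5 at an unadjusted p under 0.05, beside 6.39% of all genes. Without the run 1 pair the A549 values, between 0.04 and 0.73 over the condensin genes with it, were between -0.47 and -0.16, and 0 of 9 passed again. In H1975 the drug change of NCAPD2 differed by -0.95 between the times (SE 0.33, adjusted p = 0.61) and that of SMC2 by -0.93 (SE 0.36, adjusted p = 0.704), and neither passed.

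ESCO2, the acetyltransferase active in replication, differed between the lines without drug. With PBS at 6 h its levels were 0.24, 0.09 and -0.03 in A549 (runs 1, 2 and 3) and -0.90, -1.17 and -1.11 in H1975 (runs 1, 3 and 4). The lines did not overlap (33.2% of all genes were lower on every H1975 array), and H1975 was lower (difference -1.16, SE 0.23, 95% interval -1.64 to -0.68, adjusted p = 0.000222), or 2.24-fold. The other ESCO2 probe differed by -1.0 (adjusted p = 0.00346). All ESCO2 tests use the spread shared by the 8 groups, which includes the 24 h arrays by which ESCO2 was chosen. In this comparison 33.4% of all genes passed in either direction and 16.1% as lower, so a line difference of this kind was common. At 24 h with PBS the values were -0.78, 0.07 and -0.09 in A549 and -1.19, -1.22 and -1.14 in H1975.

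With Pirfenidone at 6 h, ESCO2 was at -0.21, -0.12 and -0.35 in A549 and at -1.21, -1.45 and -1.25 in H1975. In each line every drug array was lower than every PBS array of that time, as were 8.9% of all genes in A549 and 7.67% in H1975, although the other probe overlapped in H1975. The differences were small and did not pass: -0.33 in A549 (95% interval -0.81 to 0.15, adjusted p = 1) and -0.24 in H1975 (95% interval -0.72 to 0.23, adjusted p = 0.832), and the 2 drug changes differed by 0.08 (95% interval -0.59 to 0.76, adjusted p = 1). The values that led to the choice of ESCO2 follow as a description. At 24 h with drug it was at 0.25, -0.13 and -0.44 in A549 and at -3.20, -2.32 and -2.28 in H1975, the lowest 3 of the 24 arrays. The mean difference was 0.16 in A549, where the run pairs gave 1.03, -0.20 and -0.35, and -1.42 in H1975, where they gave -2.01, -1.10 and -1.14. The lines differed by -1.58, and by -1.14 without the run 1 pair of A549. The other probe gave -1.50 in H1975 and 0.18 in A549.

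**Figure D4:**
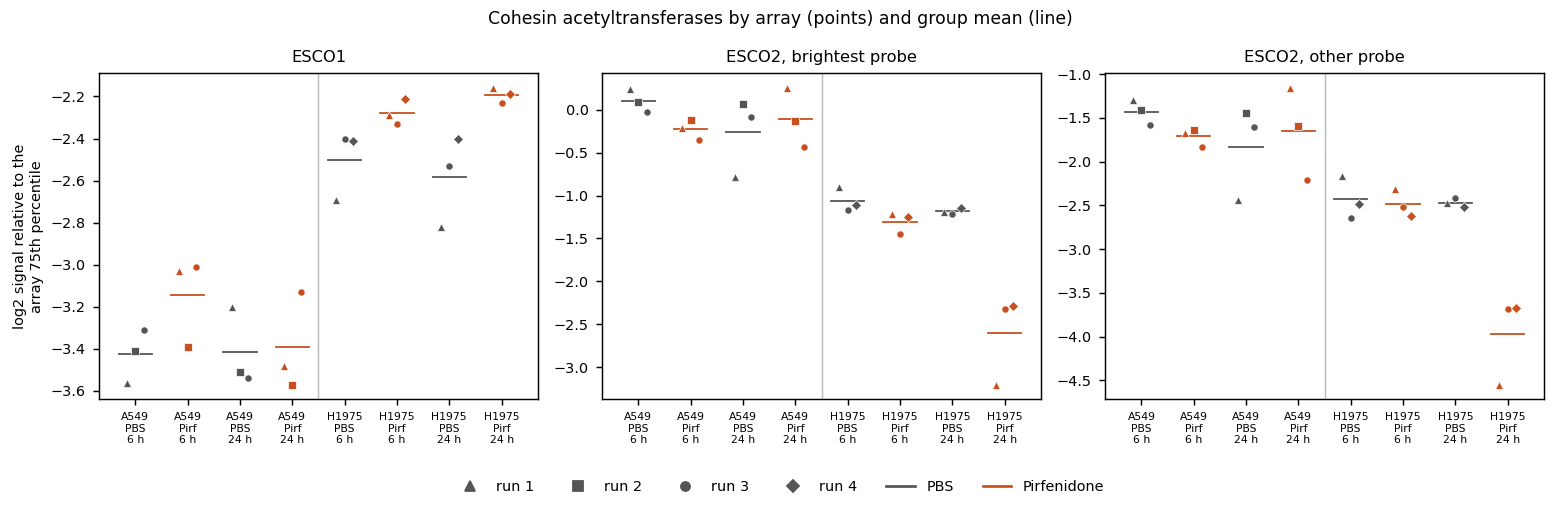
Level of the ESCO1 probe and of both ESCO2 probes (y axis, log2 relative to the 75th percentile of the array) on the 24 arrays, with the 8 groups on the x axis, the run as the marker and the group mean as a line. ESCO2 is lower in H1975 than in A549 with PBS at 6 h, and ESCO1 is higher in H1975 than in A549 in all groups.

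In the order of ESCO2 group means, the 4 A549 groups came first, from 0.10 (PBS, 6 h) to -0.27 (PBS, 24 h), and each overlapped the next. H1975 with PBS at 6 h (-1.06 ± 0.14, SD, n = 3), PBS at 24 h (-1.18 ± 0.04) and drug at 6 h (-1.30 ± 0.13) followed, again each overlapping the next, and H1975 with drug at 24 h (-2.60 ± 0.52) came last, below all arrays of the group before it.

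ESCO1, which acetylates SMC3 outside replication as well, had the opposite order of lines. With PBS at 6 h its levels were -3.56, -3.41 and -3.31 in A549 and -2.69, -2.40 and -2.41 in H1975. At 24 h they were -3.20, -3.51 and -3.54 in A549 and -2.82, -2.53 and -2.40 in H1975. H1975 was above A549 on all arrays at both times, by 0.93 (SE 0.14, adjusted p = 1.75e-05) and 0.83 (SE 0.14, adjusted p = 6.29e-05), differences below the size limit. Separate arrays in this direction were seen for 35.4% and 34.4% of all genes, and 60.8% and 61.2% of all genes had an adjusted p of 0.05 or less in these comparisons. With drug, ESCO1 was the 1 gene of the 9 tested with a higher mean in all 4 pairs of line and time. In H1975 it was at -2.29, -2.33 and -2.21 at 6 h and at -2.16, -2.23 and -2.19 at 24 h, above every PBS array of the same time. The differences of 0.22 (95% interval -0.08 to 0.52, adjusted p = 0.675) and 0.39 (95% interval 0.09 to 0.69, adjusted p = 0.113) did not pass, and 11.3% of all genes at 6 h and 17.6% at 24 h were higher on every drug array. In A549 the differences were 0.29 at 6 h (95% interval -0.02 to 0.59, adjusted p = 0.881) and 0.02 at 24 h (95% interval -0.28 to 0.33, adjusted p = 1), and the groups overlapped.

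Between the lines with PBS, 0 of the 9 tested members passed at 6 h (33.4% of all genes did) or at 24 h (33.8%), with 2 and 3 at an unadjusted limma p under 0.05, beside 64.8% of all genes at both times. Apart from ESCO1, NCAPH2 was higher in H1975 by the adjusted p alone, by 0.64 at 6 h (adjusted p = 0.00191) and 0.86 at 24 h (adjusted p = 0.000112). All 3 NCAPH2 probes gave this difference, between 0.63 and 0.68 at 6 h and between 0.86 and 0.95 at 24 h. SMC4 was higher in H1975 at 24 h by 0.61 (adjusted p = 0.0345), but without the A549 PBS array of run 1 (replicate 3) the difference was 0.36 (adjusted p = 0.217). The 2 SMC2 probes disagreed on the lines: the brightest, at chr9:106903624-106903683 on hg19, differed by -0.43 at 6 h and 0.03 at 24 h, and the other, at chr9:106896796-106896855, by 0.69 (adjusted p = 0.0104) and 1.16 (adjusted p = 0.00013). Both SMC2 probes gave nearly the same drug difference in H1975 at 24 h, -0.99 and -0.92. Without the A549 arrays of run 1 at 24 h, NCAPH passed as lower in H1975 with PBS at that time, with a difference of -1.06 (adjusted p = 0.00976), NCAPD2 was lower by the adjusted p alone (-0.43, adjusted p = 0.0265), and the brightest SMC2 probe was at -0.39 (adjusted p = 0.0697). From 6 h to 24 h with PBS, 0 of 9 passed in A549 (0.0785% of all genes did; 2 at an unadjusted p under 0.05, beside 8.83% of all genes) and in H1975 (0.344%; 0 at an unadjusted p under 0.05). The 2 in A549 were NCAPH at -0.99 and NCAPG2 at -0.49, and without the run 1 pair they were at -0.31 and -0.17 (adjusted p = 1 for both).

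The second probes of the condensin genes gave drug differences in H1975 at 24 h that were lower in all cases. SMC4's other probe differed by -0.94 (adjusted p = 0.0222), beside -0.74 for its brightest, and NCAPD2's by -0.97 (adjusted p = 0.0272), beside -0.92. The other NCAPH2 probes differed by -0.49 and -0.26, the second with an adjusted p of 0.433. NCAPG, NCAPH, NCAPD3 and NCAPG2 had 1 probe each and no second reading.

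Other genes of sister chromatid cohesion and chromosome structure were read from a list of 28, of which 27 matched an array symbol, current or older, and all 27 were tested. The list was chosen with earlier results of these data known. Its median in H1975 at 24 h was -0.23, beside 0.03 over all genes. In that comparison 1.06% of all genes passed as lower (2.05% in either direction), and 7 of the 27 passed as lower and 0 as higher. The guardians of cohesin were among them: CDCA5 (sororin), which keeps acetylated cohesin from being released, fell by 1.09 (SE 0.22, adjusted p = 0.01), and the centromere protectors SGO1 and SGO2 fell by 1.12 (SE 0.21, adjusted p = 0.007) and 1.06 (SE 0.29, adjusted p = 0.0376). ESPL1 (separase), which cuts cohesin at anaphase, fell by 1.41 (SE 0.28, adjusted p = 0.00829), and its inhibitor PTTG1 (securin) differed by -0.97 (SE 0.26, adjusted p = 0.0333), short of the size limit. Of the 5 matched genes listed as partners of condensin, 3 fell, the chromokinesin KIF4A by 1.24 (SE 0.31, adjusted p = 0.0244), the topoisomerase TOP2A by 1.09 (SE 0.31, adjusted p = 0.0424) and MKI67 (Ki-67), which coats the chromosome surface, by 1.36 (SE 0.38, adjusted p = 0.039). AKAP8 (-0.56, adjusted p = 0.0766) and PHF8 (-0.18, adjusted p = 0.756) did not pass. TOP2A and MKI67 also belong to the G2/M list.

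**Figure D5:**
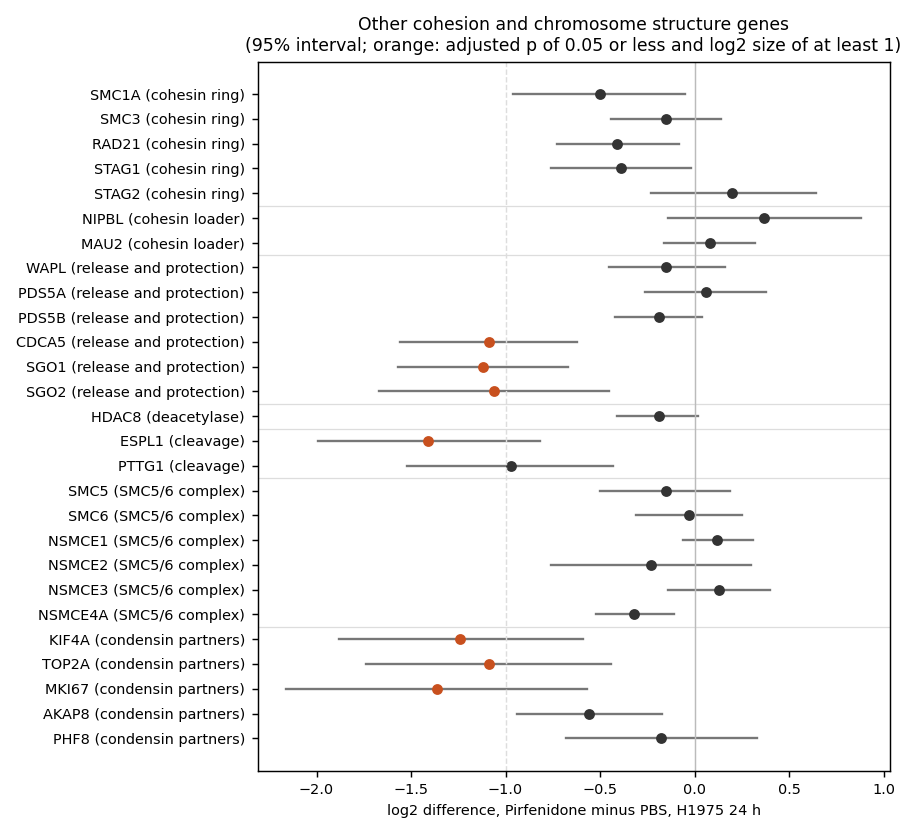
Drug difference in H1975 at 24 h (x axis, log2, Pirfenidone minus PBS) of 27 other cohesion and chromosome structure genes, grouped by role, with 95% intervals from limma. The 7 genes that passed lie between -1.41 and -1.06 and belong to protection, cleavage and condensin partners, while the 5 ring subunits lie between -0.50 and 0.20.

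The cohesin ring itself did not pass: SMC1A, SMC3, RAD21, STAG1 and STAG2 gave 0 of 5, with differences between -0.50 and 0.20 and a median of -0.39. Neither loader gene (NIPBL, MAU2) and none of the 6 SMC5/6 genes passed. The contrast between these roles is a description and was not tested. Without replicate 3 of the H1975 drug group 0 of the 27 passed. In the other 3 drug comparisons 0 of 27 passed, with list medians between -0.04 and 0.04.

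The 5 genes whose pattern was most like that of ESCO2 over the 24 arrays, after each line was centered on its own mean, are given as a description, since the 24 h values by which ESCO2 was chosen enter the ranking. Pearson r was 0.97 for HELLS, a chromatin remodeler of the SNF2 family, 0.97 for POLE2, a subunit of DNA polymerase epsilon, 0.96 for GMNN, the inhibitor of replication licensing, 0.96 for RAD54L, which acts in homologous recombination, and 0.96 for EXO1, an exonuclease of mismatch repair. All 8 condensin genes followed ESCO2 less closely, with r between 0.84 for NCAPD3 and 0.88 for NCAPG, at ranks 456 and 238 among 16492 genes. ESCO1 ran the other way, with an r of -0.59. The arrays share drug, time and run, so these values describe the arrays together and carry no p.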

How the data were processed

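Gene expression of 24 samples was measured on one-color Agilent arrays. The authors deposited the spot intensity files of Agilent Feature Extraction 11.5.1.1, with background already subtracted, and a table of log2 values centered on each probe's median over the arrays. Here log2 of the processed intensity minus the array's 75th percentile was used, with control spots and outlier flags left out and spots of a probe averaged. A probe was tested if 1 or more groups had it clearly over background in all 3 samples (23827 probes), and limma 3.58.1 in R 4.3.3 fitted the 8 groups together with 16 residual degrees of freedom. The study's methods name a moderated test at a 2-fold change with a family-wise permutation rate; that rate cannot reach 0.05 with 3 arrays against 3 (smallest exact p 0.1), so Benjamini-Hochberg adjustment took its place. The script was tested on simulated data. The members and lists were chosen with earlier results of these data known. The text names all members, every listed cohesion gene that passed in a drug comparison, and the 5 genes most like ESCO2. MCPH1 was not matched by symbol. Same-numbered arrays deviated together in A549 at 6 h (r 0.58 to 0.70) and H1975 at 24 h (0.46 to 0.72) but not in A549 at 24 h (-0.10 to 0.39) or H1975 at 6 h (-0.68 to 0.43), where the numbers do not follow the runs and arrays of the same run had r of 0.50 to 0.82. Alternatives were normexp background correction, quantile normalization, the authors' table, no filter, blocks, other adjustments and leaving out arrays.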

Additional observations from a re-analysis of the deposited data

How the results depend on the processing

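The count of 9 tested members that passed was 2 in H1975 at 24 h. It was 1 with no filter on dim probes, with the replicate number as a block and with the slide as a block, and 6 without the fold limit. The count was 0 with normexp background correction, with only the 6 arrays compared and with Holm adjustment. It was also 0 with an ordinary Student's t-test paired by run, unadjusted or after Benjamini-Hochberg. Leaving out 1 array at a time gave 0 to 4. Quantile normalization and the authors' values gave 3, and the run as a block and leaving out the run 1 pair of A549 at 24 h gave 2. Under normexp NCAPG differed by -1.14 (adjusted p = 0.126) and NCAPH by -0.67 (adjusted p = 0.621); the cause was not tested. Between the lines with PBS the count of 0 became 2 at 6 h and 3 at 24 h without the fold limit, 1 at 24 h without the run 1 pair of A549, and 0 to 1 at both times when 1 array was left out. The replicate block changed no other count. The median over the 8 condensin genes in H1975 at 24 h stayed between -1.03 and -0.77 when 1 array was left out and between -0.96 and -0.88 under the other scalings. Normexp moved the median of all genes in H1975 at 6 h from 0.05 to 0.20, where the condensin median less that of all genes went from -0.08 to -0.22. Array number and signal over background limit the precision. No value that passed changed its sign under any alternative.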

Other observations

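Among the other cohesion genes, some of the widest differences lay between the lines with PBS. The cohesin loader pair NIPBL and MAU2, which bring cohesin onto DNA, was higher in H1975: NIPBL by 1.34 at 6 h (SE 0.25, adjusted p = 0.000106) and 1.26 at 24 h (adjusted p = 0.000198), and MAU2 by 1.44 (SE 0.12, adjusted p = 3.09e-09) and 1.45 (adjusted p = 2.72e-09). The SMC5/6 complex, a further ring of this family that acts in DNA repair, had members that were lower in H1975. NSMCE4A differed by -1.41 at 6 h (SE 0.10, adjusted p = 3.58e-10) and -1.48 at 24 h, and NSMCE3 by -1.24 (SE 0.13, adjusted p = 1.2e-07) and -1.32. These were the 4 of 27 that passed at each time, beside 33.4% and 33.8% of all genes. HDAC8, which removes the acetyl group that ESCO1 and ESCO2 add, was higher in H1975 by 0.78 and 0.85 (adjusted p = 1.93e-06 and 6.17e-07), below the size limit. The levels of these 5 genes were separate between the lines on every PBS array of a time, which was common. Of 16553 genes, 5861 were higher and 5501 lower on every H1975 array at 6 h, and 5690 and 5104 at 24 h. None of the 27 genes passed in the drug comparisons of A549, where 0.205% of all genes did at 6 h and 0.0121% at 24 h.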
